A study of Oryza sativa Japonica Group and Oryza sativa Indica Group with 20 samples.

Results

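The comparison described here sets rice callus that regenerated (stage TS) against subcultured callus (stage T2), paired within each of 2 cultivars. It rests on 4 of the 20 samples of the series, chosen by stage from the labels: the TS and T2 RNA libraries of Tainung 67 (TNG67), a japonica cultivar, and of IR64, an indica cultivar. TS callus had been moved to a regeneration medium that held the auxin NAA at 0.02 mg/L together with the cytokinin BAP at 2 mg/L. T2 callus was on fresh callus medium that held the synthetic auxin 2,4-D at 2.5 mg/L, as newly induced callus (T1) had been, and callus that failed to regenerate (TF) was on the TS medium. The embryo (T0) was the start of the culture. Each cultivar and stage had 1 RNA library, so no value has a replicate of its own, and the sources used here do not say how many calli or plants stood behind a library. The medium, the time in culture and the choice of callus that regenerated all differ between TS and T2 and cannot be told apart.

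A callus is a mass of dividing plant cells kept in an unorganised state by a strong auxin. When a medium rich in cytokinin replaces the strong auxin, some calli form shoot meristems, small domes of dividing cells that give rise to leaves and stem, and later a plantlet. In rice such callus is commonly started from the scutellum of the mature embryo, and indica cultivars often regenerate less readily than japonica ones.

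Expression was given as FPKM, a fragment count scaled to gene length and to the mapped fragments of the library. Summed FPKM was 709708 in TNG67 TS and 668072 in IR64 TS, against 625780 in TNG67 T2 and 602209 in IR64 T2. In the order of the same libraries, 19409, 19804, 19466 and 19854 loci had at least 1 FPKM. Of 54170 loci in the table, the 20810 that averaged at least 1 FPKM over the 4 libraries entered the tests, and the 4 libraries all listed 22165 loci at 0. The values are not counts, so sequencing depth is unknown. The table pairs its locus identifiers with no gene names and none of them was found in the RefSeq table used here, so loci are given by identifier and the chromosome it encodes, with no gene name or role. For the same reason the callus could not be checked against markers of shoot, root or embryo tissue. Some libraries stood apart at single abundant loci. LOC_Os09g01000 on chromosome 9 was listed at 0 in IR64 T2 and at 6432.2 FPKM or more in the other 9 libraries. A listed 0 beside such levels can be a failed estimate; the locus is 1 of those counted as higher in IR64 TS. The IR64 embryo summed to 3792962 FPKM, with 81.6% in its 10 most abundant loci, because LOC_Os12g13870 was listed there at exactly 3000000. Its part in the embryo levels of IR64 given below was not tested. The median over all tested loci was 8.01 FPKM in the IR64 embryo, 8.23 in the TNG67 embryo and 8.16 in IR64 T2.

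Regenerating callus stayed close to the subcultured callus of its cultivar. On the log2(FPKM + 1) scale, used for all changes here and understating those of low loci, the difference TS minus T2 had a standard deviation over loci of 0.462 in TNG67 and 0.392 in IR64. The middle 90% of loci lay between -0.664 and 0.765 in TNG67 and between -0.608 and 0.562 in IR64. The median differences were 0.05 in TNG67 and 0.03 in IR64. TNG67 had 556 loci higher in TS by 2-fold or more (2.67% of the loci tested) and 396 lower by as much (1.9%). IR64 had 234 higher (1.12%) and 285 lower (1.37%). Together these are 4.57% of loci in TNG67 and 2.49% in IR64.

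**Figure D1:**
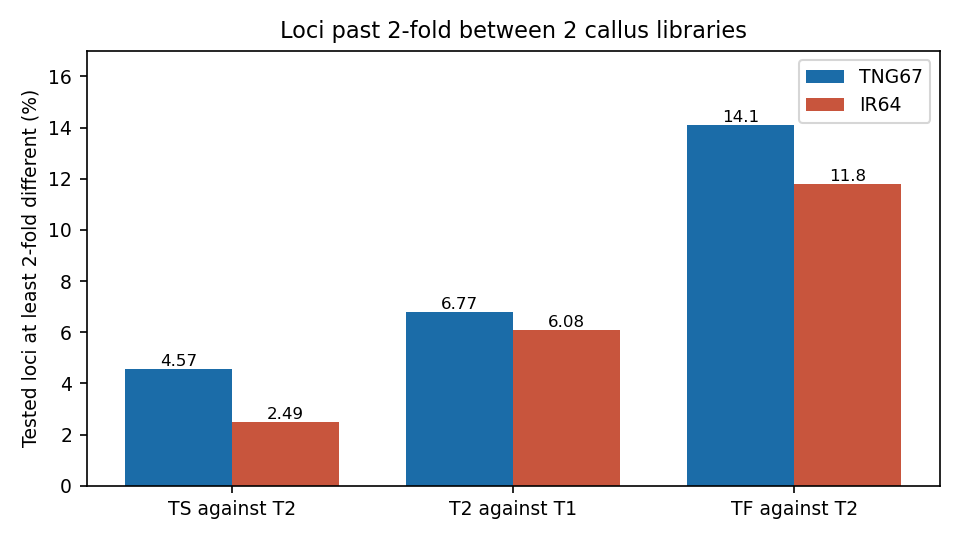
Share of the 20810 tested loci (percent) at least 2-fold different in FPKM + 1 between 2 libraries of a cultivar, for TS against T2, T2 against T1 and TF against T2; each bar compares 2 single libraries and has no error. The TS bars, at 4.57% in TNG67 and 2.49% in IR64, are the lowest of each cultivar.

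For scale, T2 differed from T1 on the same medium by at least 2-fold at 6.77% of loci in TNG67 and 6.08% in IR64, and TF from T2 at 14.1% and 11.8%. The plot of these shares puts the TS bar below the others in each cultivar. The pairs share the T2 library, so the shares stand side by side and were not tested against each other.

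At 4-fold the cultivars leaned in different directions. TNG67 had 42 loci higher in TS by 4-fold or more (0.202%) and 27 lower (0.13%). IR64 had 5 higher (0.024%) and 17 lower (0.0817%). The lean of TNG67 depended on the settings, with 33 higher and 30 lower after median-ratio scaling, and turned to 29 higher and 35 lower after quantile normalization and to 168 higher and 185 lower at a pseudocount of 0.1. The lean of IR64 to lower values held under both, at 5 and 17 and at 4 and 18.

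The changes were partly common to the cultivars, whose libraries were separate. Over all tested loci the TNG67 and IR64 changes correlated at 0.29 (Spearman) and 0.30 (Pearson), and 60.7% of the loci with a change in both had the same sign. Loci share libraries and are not independent replicates, so no p-value is given for them. By level the rank correlation was 0.23 for loci averaging 1 to 5 FPKM, 0.33 from 5 to 20, 0.34 from 20 to 100 and 0.44 at 100 or more. In the same bands the Pearson correlation was 0.20, 0.34, 0.39 and 0.33. The highest band holds LOC_Os09g01000, with changes of 13.75 in IR64 and 0.01 in TNG67. What this locus does to the Pearson value of the band was not tested. In the same bands 58.3%, 62.6%, 61.3% and 58.0% of loci had the same sign, so this share did not increase steadily with level. Among the 1185 loci that differed by at least 0.5 on the log2 scale in both cultivars, 962 had the same sign and 223 opposite signs. At 1 on that scale, which is 2-fold, 112 had the same sign and 10 (0.0481% of loci tested) opposite signs.

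**Figure D2:**
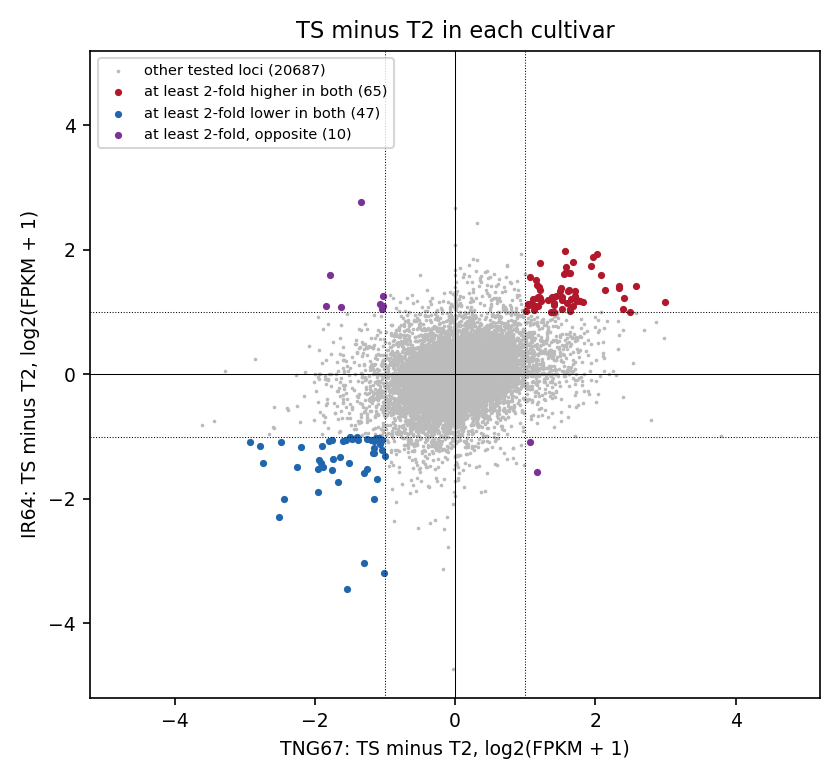
Change (TS minus T2, log2 of FPKM + 1) of each tested locus in TNG67 (horizontal axis) and IR64 (vertical axis); each point is a locus, dotted lines mark 2-fold, and LOC_Os09g01000, at 13.75 in IR64, is off the scale. Coloured points past 2-fold in both cultivars number 65 higher and 47 lower in TS, against 10 in opposite directions.

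Each cultivar's list carried over to the other in part. Of the 556 loci at least 2-fold higher in TNG67 TS, 73.7% were higher in IR64 TS as well, against 54.4% of all tested loci. Of the 396 at least 2-fold lower, 68.2% were lower in IR64 TS, against 44.5%. Of the 234 higher in IR64 TS, 76.1% were higher in TNG67 TS, against 56.0%, and of the 285 lower, 73.0% were lower in TNG67 TS, against 43.1%. The 17 loci at least 4-fold lower in IR64 TS were lower in TNG67 TS at 17 of 17, with a median change there of -0.52. Fewer reached 2-fold in both: 65 loci were higher by that much in both cultivars (0.312%), which is 11.7% of the TNG67 list and 27.8% of the IR64 list. Likewise 47 were at least 2-fold lower in both (0.226%), 11.9% of the TNG67 list and 16.5% of the IR64 list.

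No locus passed the test across loci. limma on the 4 libraries, with cultivar as a block, called 0 of 20810 loci (0.0%) at an adjusted p of 0.05, with a lowest adjusted p of 0.174. It gave 2540 loci (12.2%) at an unadjusted p under 0.05, where chance gives 5% over both directions together. Of the 2540, 1423 were higher in TS (6.84% of tested loci) and 1117 lower (5.37%). The test has 1 residual degree of freedom, the disagreement of the cultivars, so its p-values weigh the common change against that disagreement, and the spread between cultures is not in them. With all 10 RNA libraries in the fit it also called 0 and gave 213 loci (1.02%), and no other tool was run. The 0 calls do not show that no locus changed.

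LOC_Os11g47610 on chromosome 11 was the locus most higher in TS by the lesser of its changes in the cultivars. It stood at 168 FPKM in TNG67 TS and 195 in IR64 TS, against 40.5 in TNG67 T2 and 50.7 in IR64 T2. Both TS values lay well above both T2 values, by 2.03 in TNG67 and 1.93 in IR64 on the log2 scale (fitted 1.98, SE 0.17, limma adjusted p = 0.17). The embryos held far more, 6365.84 FPKM in TNG67 and 1757.35 in IR64, while T1 had 84.5 and 93.2 and TF 166 and 172. In these libraries it was thus highest in the embryo, lowest at T2, and alike in TS and TF callus.

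LOC_Os01g62830 on chromosome 1 had 44.6 FPKM in TNG67 TS and 10.3 in IR64 TS, against 10.7 in TNG67 T2 and 2.07 in IR64 T2. The groups overlapped, TNG67 at T2 standing about as high as IR64 at TS, and the changes were close, 1.96 and 1.88 (SE of the fitted change 0.15, limma adjusted p = 0.17). TF callus had 21.5 FPKM for TNG67 and 4.27 for IR64, between the T2 and TS levels of each cultivar. The embryos had 42.3 FPKM in TNG67 and 5.55 in IR64, below the TS level of each.

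LOC_Os01g06630, also on chromosome 1, led the loci lower in TS. It stood at 2.52 FPKM in TNG67 TS and 0.987 in IR64 TS, against 19.1 in TNG67 T2 and 8.71 in IR64 T2, with changes of -2.51 and -2.29 (fitted -2.40, SE 0.16, limma adjusted p = 0.17; -1.44 at a pseudocount of 5). Both TS values lay below both T2 values. In TF callus it was at 14.1 and 5.41 FPKM, nearer to T2 than to TS in each cultivar. Its embryo levels, 50.8 FPKM in TNG67 and 87.5 in IR64, were the highest of each cultivar. T1 callus differed between cultivars, at 18.3 FPKM in TNG67 and 0.206 in IR64, so in IR64 the T1 level lay below TS.

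LOC_Os03g20680 on chromosome 3 had 12.9 FPKM in TNG67 TS and 3.85 in IR64 TS, against 74.1 in TNG67 T2 and 18.6 in IR64 T2, with changes of -2.44 and -2.01 (SE 0.17, limma adjusted p = 0.17). Both TS values lay below both T2 values. TF callus had 19.8 FPKM in TNG67 and 24.2 in IR64. The embryo had 70.3 FPKM in TNG67, close to T2, and 502 in IR64, far above every callus. These last 2 loci were also the only tested loci at least 4-fold lower in both cultivars; no tested locus was at least 4-fold higher in both.

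**Figure D3:**
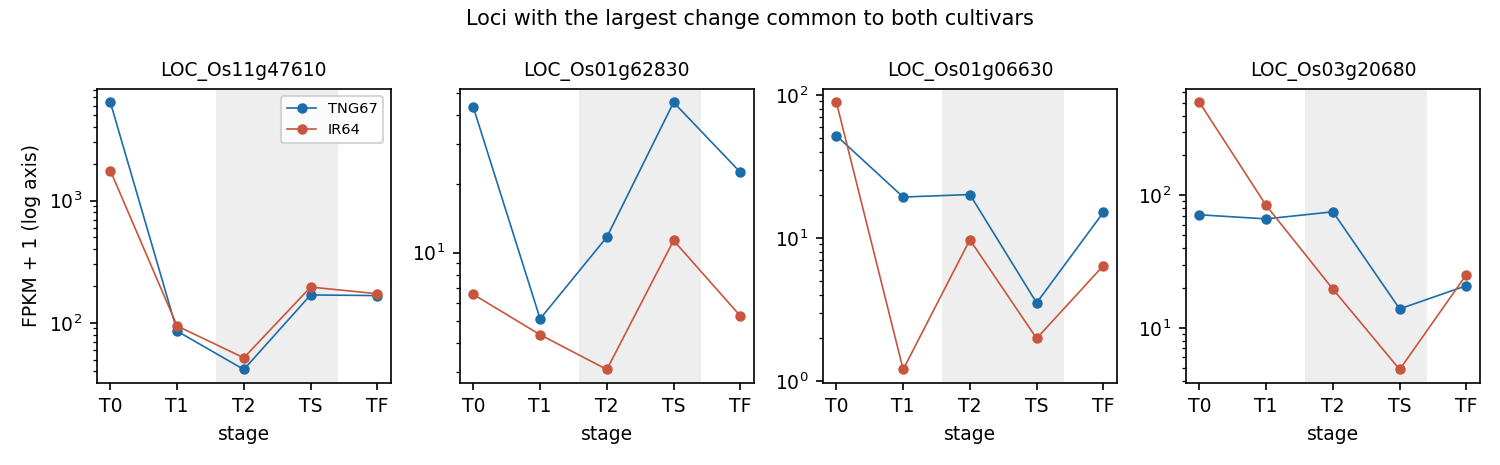
FPKM + 1 (log axis) by stage, in culture order with TF last, for the 2 loci most higher and the 2 most lower in TS of both cultivars; each point is 1 library, lines join the libraries of a cultivar, and grey marks T2 and TS. In all 4 panels the TNG67 and IR64 lines run the same way from T2 to TS. LOC_Os11g47610, higher in TS, and LOC_Os01g06630, lower in TS, are each highest in the embryo of both cultivars.

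LOC_Os11g47610 belonged to a run of neighbours that differed together. Between LOC_Os11g47510 and LOC_Os11g47610 the table holds 11 loci, of which 10 were tested, and 9 of these were at least 2-fold higher in TS of both cultivars. They were all of the chromosome 11 loci among the 65, or 13.8% of the 65 on a chromosome with 5.25% of the tested loci. The 9 loci ran from 32.3 to 923 FPKM in TNG67 TS (median 134) and from 25.1 to 735 in IR64 TS (median 156). At T2 they ran from 4.59 to 410 FPKM in TNG67 (median 45.2) and from 8.73 to 318 in IR64 (median 50.7). At T1, on the medium of T2, the medians were 84.5 in TNG67 and 93.2 in IR64, between those of T2 and TS. The 9 had (FPKM + 1) ratios of TS to T2 of 2.25 to 5.95 in TNG67 and 2.0 to 3.8 in IR64. At 6 of the 9 both TS values lay above both T2 values. So they did at 36 of the 65, chosen in the same way, and at 8.91% of all tested loci (6.17% had both below). The count thus follows in part from the choice of the loci. The limma adjusted p of the 9 was 0.17 to 0.23. The other tested locus of the run, LOC_Os11g47560, had 48.0 FPKM in TNG67 TS and 769 in IR64 TS, against 27.5 in TNG67 T2 and 520 in IR64 T2, the same direction at 1.72-fold and 1.48-fold.

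**Figure D4:**
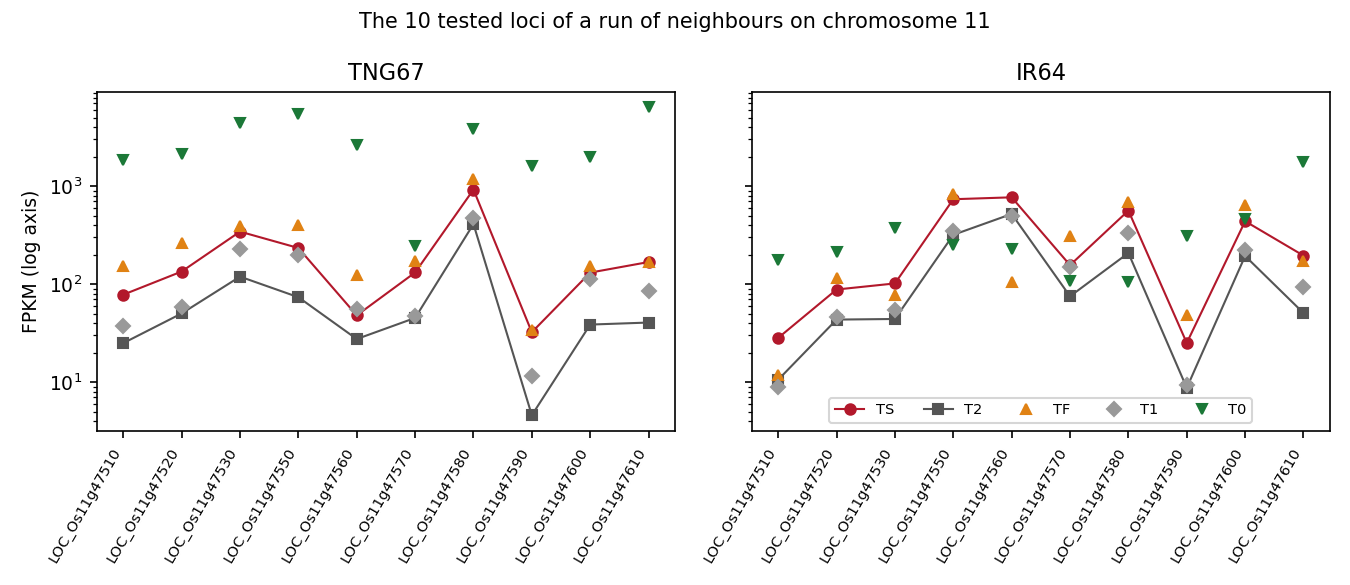
FPKM (log axis) of the 10 tested loci from LOC_Os11g47510 to LOC_Os11g47610, in identifier order, with a panel per cultivar; each symbol is 1 library, and lines join the loci within the TS and within the T2 library. The TS line lies above the T2 line at all 10 loci in both panels, and in TNG67 the embryo symbol is the highest at every locus. In IR64 the embryo symbol lies below the T1 symbol from LOC_Os11g47550 to LOC_Os11g47580.

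The run was also abundant in the TNG67 embryo, less evenly so in the IR64 embryo, and high in failed callus. In TNG67 the 9 loci had 245 to 6366 FPKM in the embryo (median 2150), and all 9 were at least 2-fold above T1 (22.6% of all tested loci), where the median was 84.5. In IR64 the embryo had 104 to 1757 FPKM (median 251), and 6 of 9 were at least 2-fold above T1 (20.0% of all tested loci). At LOC_Os11g47550, LOC_Os11g47570 and LOC_Os11g47580 the IR64 embryo stood below IR64 T1, at 251, 108 and 104 FPKM against 349, 151 and 334. TF callus was above TS at 8 of 9 in TNG67 and 6 of 9 in IR64, beside 41.2% and 40.2% of all tested loci. Neighbouring genes can be close copies, and the table does not show how reads common to copies were treated, so the levels of single loci in the run are uncertain.

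Other neighbours also appeared among the loci higher in TS. Within an identifier distance of 100, 24 of the 65 had another of the 65 nearby, as the run of 9, 1 group of 3 on chromosome 8 and 6 pairs. Pairing each of the 65 with every tested neighbour gave 664 pairings, and in 90 of these (13.6%) the neighbour was also among the 65. A locus is counted again for each of the 65 near it, so these are not distinct loci. With the run left out it was 18 of 562 pairings (3.2%). Of all tested loci, 0.312% were among the 65. For the 47 loci lower in TS the share of such pairings was 0.858%, beside 0.226% of all tested loci, with 4 loci in 2 pairs. Over all tested loci the changes of adjacent loci correlated weakly, at 0.07 (Spearman) in TNG67 and 0.08 in IR64, and at 0.02 and 0.01 for loci 5 places apart. Whether overlapping or copied genes take part in this was not tested.

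The loci higher in TS of both cultivars were largely loci abundant in the embryo. This was read from libraries that did not choose them. The TNG67 embryo exceeded TNG67 T1 callus by 2-fold or more at 57 of the 65 (87.7%), beside 22.6% of all tested loci. In IR64 it did so at 43 (66.2%), beside 20.0%. Without the run on chromosome 11 the shares were 85.7% and 66.1% of 56 loci. Against TF callus in place of T1, 72.3% and 55.4% of the 65 stood that much above in the embryo, beside 20.0% and 16.1% of all tested loci. As far below TF in the embryo were 7.69% of the 65 in TNG67 and 24.6% in IR64, beside 19.0% and 17.7%. As far below T1 were 6.15% and 13.8%, beside 19.2% and 23.5%. The median over the 65 was 424 FPKM in the TNG67 embryo and 111 in the IR64 embryo. It was 32.3 in TNG67 TS and 32.6 in IR64 TS, against 10.7 in TNG67 T2 and 11.1 in IR64 T2. The order of TS and T2 here follows from the choice of the loci, and the TS medians lay below the embryo medians.

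**Figure D5:**
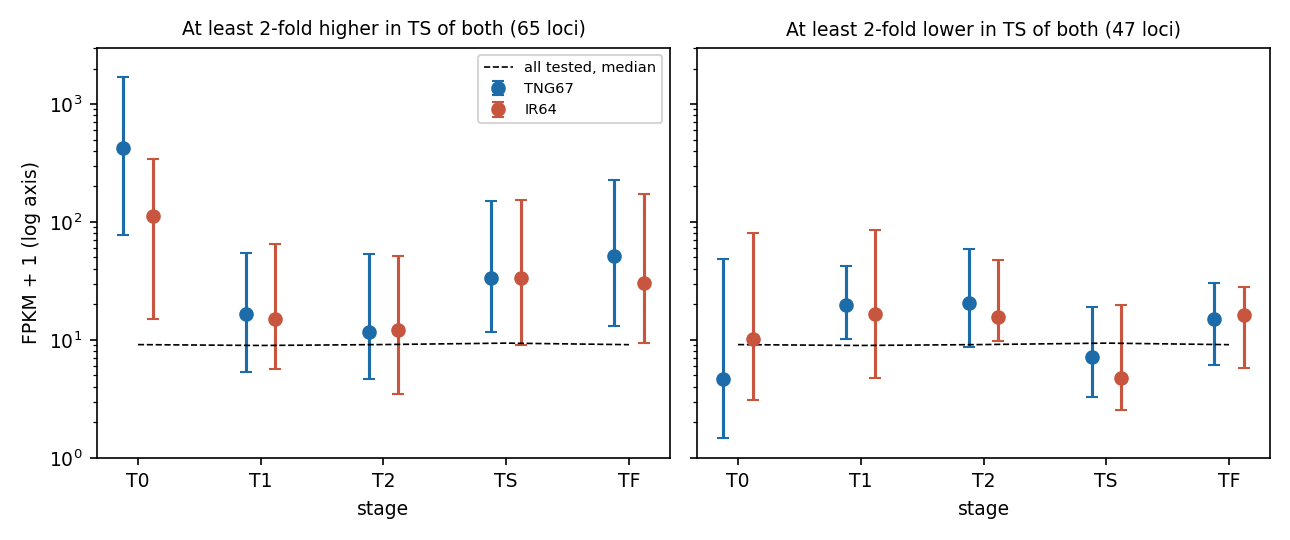
Median FPKM + 1 (points, log axis) with the quartiles over loci (bars from the lower to the upper) in each library, by stage, for the loci at least 2-fold higher (left, 65) or lower (right, 47) in TS of both cultivars; the dashed line is the median of all 20810 tested loci, averaged over cultivars. On the left the embryo medians of 424 and 111 FPKM stand highest, and TF has medians of 50.8 and 29.4; the order of TS and T2 in both panels is fixed by how the loci were chosen.

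The same loci were high in failed callus as well. Their median in TF was 50.8 FPKM for TNG67 and 29.4 for IR64; in T1 callus it was 15.5 and 14.0. Of the 65, 67.7% were at least 2-fold higher in TF than in T1 in TNG67 and 47.7% in IR64, beside 11.3% and 11.5% of all tested loci. T1 and T2 callus grew on the same medium, yet the median of these loci was higher in T1 than in T2. It was 15.5 against 10.7 FPKM in TNG67 and 14.0 against 11.1 in IR64. Over all tested loci the medians were 7.87 against 8.1 FPKM in TNG67 and 8.07 against 8.16 in IR64. T2 was used to choose the loci, and what this adds to the shares against T1 was not tested. The shares are not matched on level. In bulk callus, more cells with such transcripts and more transcript per cell cannot be told apart.

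The 47 loci lower in TS of both cultivars were more often lower than higher in the embryo than in T1. In TNG67 59.6% of them stood lower by 2-fold or more in the embryo than in T1, beside 19.2% of all tested loci, and in IR64 51.1%, beside 23.5%. At a pseudocount of 5 the TNG67 share was 30.8%, over the loci then counted. Higher in the embryo by as much were 21.3% in TNG67 and 34.0% in IR64, beside 22.6% and 20.0%. Against TF callus the IR64 embryo was nearly balanced, with 36.2% of the 47 lower and 31.9% higher. The median of the 47 was 6.14 FPKM in TNG67 TS and 3.76 in IR64 TS, against 19.4 in TNG67 T2 and 14.7 in IR64 T2. In TF callus it was 14.1 and 15.2 FPKM, above the TS median in both cultivars and near the T1 medians of 18.8 and 15.5.

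The 2 loci named for being higher in TNG67 TS changed by less in IR64, though they were chosen by their change in TNG67. LOC_Os07g25690 on chromosome 7 was at 30.4 FPKM in TNG67 TS, against 2.95 in TNG67 T2, a change of 2.99. In IR64 it was at 2.83 FPKM in TS, against 0.708 in T2, a change of 1.17. It was another embryo-abundant locus, at 1116.43 and 347 FPKM in the TNG67 and IR64 embryos, but it stood at 2.87 and 1.64 in TF. LOC_Os12g36880 on chromosome 12 was at 69.4 FPKM in TNG67 TS, against 7.97 in TNG67 T2, a change of 2.97, and at 4.39 in IR64 TS, against 2.58 in IR64 T2. In IR64 its highest library was TF, at 110 FPKM. Over the 42 loci at least 4-fold higher in TNG67 TS, 33 were higher in IR64 TS too (78.6%, beside 54.4% of all tested loci), with a median change there of 0.66. The embryo exceeded T1 by 2-fold or more at 54.8% of them in TNG67, beside 22.6%, and at 47.6% in IR64, beside 20.0%.

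Both named loci lower in TNG67 TS were far more abundant in IR64 TS and T2 callus. LOC_Os10g40520 on chromosome 10 was at 0.884 FPKM in TNG67 TS, against 21.9 in TNG67 T2, a change of -3.61. It was at 230 FPKM in IR64 TS, against 406 in IR64 T2, and at 361 in TNG67 TF and 369 in IR64 TF, so the failed calli of both cultivars were alike where the successful ones were far apart. LOC_Os02g44310 on chromosome 2 was at 0.0943 FPKM in TNG67 TS, against 10.9 in TNG67 T2, and at 150 in IR64 TS, against 255 in IR64 T2. Failed callus had 89.8 FPKM for TNG67 and 195 for IR64. Of the 27 loci at least 4-fold lower in TNG67 TS, 22 were lower in IR64 TS too (81.5%, beside 44.5% of all tested loci), with a median change there of -0.76. Their median level was 2.38 FPKM in TNG67 TS, against 16.9 in TNG67 T2, and 27.6 in IR64 TS, against 42.8 in IR64 T2.

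In IR64 the higher side was thin. Of its 5 loci at least 4-fold higher in TS, 3 were listed at 0 in T2: LOC_Os09g01000, LOC_Os03g03840 and LOC_Os06g47420, the last 2 at 5.78 and 5.37 FPKM in IR64 TS and named after their values were seen. LOC_Os12g43440 on chromosome 12 was at 11.8 FPKM in IR64 TS, against 1.36 in IR64 T2, a change of 2.44, and at 7.82 in IR64 TF. In TNG67 it was at 0.404 FPKM in TS, against 0.132 in T2. LOC_Os12g13870, also on chromosome 12 and summed over 2 deposited rows, was at 29715.4 FPKM in IR64 TS, against 7026.3 in IR64 T2, and was listed at 0 in all TNG67 libraries. This locus alone made up 22689 of the 65862 FPKM by which the summed FPKM of IR64 TS exceeded that of IR64 T2. With LOC_Os09g01000 it made up 55.3%. Its round embryo value in IR64 can be a failed estimate.

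The 17 loci at least 4-fold lower in IR64 TS differed in how far TNG67 moved with IR64. LOC_Os01g49920 on chromosome 1, summed over 2 rows, was at 0.8 FPKM in IR64 TS, against 46.9 in IR64 T2, a change of -4.73, at 47 in IR64 T1 and at 432 in IR64 TF. In TNG67 it was at 1.51 FPKM in TS, against 1.56 in T2, a change of -0.03. LOC_Os05g28210 on chromosome 5 was at 1.53 FPKM in IR64 TS, against 26.8 in IR64 T2, and at 23.5 in TNG67 TS, against 70.3 in TNG67 T2. Its changes were -3.46 in IR64 and -1.54 in TNG67, past 2-fold in both. Though lower in TS, it was abundant in the embryo, at 901 FPKM in TNG67 and 1119.05 in IR64. The median of the 17 was 2.03 FPKM in IR64 TS, against 21.7 in IR64 T2, with 3.72 in IR64 T1 and 25.9 in IR64 TF, so newly induced callus had a low median too. IR64 TF exceeded IR64 T1 by 2-fold or more at 13 of the 17 (76.5%), beside 11.5% of all tested loci, and the IR64 embryo did so at 12 (70.6%), beside 20.0%. In TNG67 the median was 23.5 FPKM in TS, against 47.2 in T2, and 6 of the 17 were lower by at least 2-fold (35.3%, beside 1.9% of all tested loci). With 1 library per stage, none of the counts within a cultivar has a replicate check.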

How the data were processed

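RNA libraries of 5 stages in 2 cultivars, 10 in all, were deposited as 1 table of FPKM. The submitters' processing notes name FastQC, Bowtie, TopHat and the build IRGSP-1.0; for versions, gene models and strand, the sources used here give nothing. The authors' FPKM values are scaled to gene length and library size. Rows of the 968 loci on more than 1 row (at most 3) were summed, 55166 rows giving 54170 loci. Loci averaging at least 1 FPKM over the 4 TS and T2 libraries were tested (20810).

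Values were log2(FPKM + 1). Each locus was fitted with stage and cultivar in limma 3.58.1 (R 4.3.3), with moderated variances that follow the mean level, and Benjamini-Hochberg adjusted at 0.05 over all loci tested. It had 1 residual degree of freedom and 4.29 prior ones, and was tested on simulated data. Cultivar pairs the libraries: the differences between cultivars at TS and at T2 correlated at 0.944 across loci. Within a cultivar, 1 library a group, ratios of FPKM + 1 were counted with no p-value. Python 3.11.15, pandas 2.3.3, numpy 2.4.6, scipy 1.17.1 and matplotlib 3.10.9 were used.

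Named loci were the 2 each way with the largest change of the lesser-changing cultivar (the higher stage averaging 5 FPKM or more) and, within a cultivar, the 2 each way with the largest change (at least 10 FPKM in the higher library, none listed at 0). The planned gene lists could not be matched, since 0 identifiers were found in the RefSeq table (assembly ASM3414082v1). The libraries, lists and tests were chosen with earlier results of these data known, the fit on 4 libraries included. Comparisons of the shared loci with embryo, T1 and TF, their neighbours and the run on chromosome 11 were added on seeing the values. Bisulfite data (10 libraries) are not analysed here.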

Additional observations from a re-analysis of the deposited data

Results flagged for a closer look

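At 10 loci the cultivars differed by at least 2-fold in opposite directions between TS and T2 (0.0481% of those tested), 2 higher in TNG67 TS and lower in IR64 TS and 8 the other way. With 1 library per cultivar and stage this difference between cultivars was not tested. The 2, named after their values were seen, were LOC_Os08g07640, at 4.23 FPKM in TNG67 TS against 1.33 in TNG67 T2 and at 0.354 in IR64 TS against 3.01 in IR64 T2, and LOC_Os08g34850, at 7.83 against 3.23 and at 0.0946 against 1.34 in the same order. All values of these 2 in TS and T2 were below 10 FPKM. The 8 the other way were not all low. Over the 4 libraries 2 of them averaged 1 to 5 FPKM and 3 averaged 5 to 20. A further 1 averaged 20 to 100 FPKM and 2 averaged 100 or more. At a pseudocount of 5 no locus differed by 2-fold in opposite directions.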

How the results depend on the processing

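limma called 0 loci in every setting tried, so the 0 tells nothing of stability. Loci at an unadjusted p under 0.05, 2540 as reported, numbered 213 with all 10 libraries in the fit and 583 with the 8 calli. They numbered 1196 with T1, T2 and TS, and 76 with no replicate block, that is, without the cultivar pairing. With no filter on low values there were 2339, or 4.32% of the 54170 loci then tested, against 12.2%. Of the 54170, 22165 were listed at 0 in all 4 libraries. Leaving out 1 TS or T2 library from the fit on 10 gave 158 (TNG67 TS left out), 255 (IR64 TS), 73 (TNG67 T2) and 157 (IR64 T2); the lone library left of a cultivar pair is then assumed to vary like the others. The cause was not tested.

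At a pseudocount of 0.1 there were 168 loci higher and 185 lower by 4-fold in TNG67 TS, a turned balance, and 38 higher and 96 lower in IR64 TS; 143 were higher and 108 lower by 2-fold in both, and 66 opposite. At a pseudocount of 5 the counts were 9, 9, 2, 5, 25, 13 and 0 in the same order, and at 2-fold IR64 had 96 higher and 91 lower, a turned balance. IR64 loci 4-fold higher numbered 8 with no filter, 2 at a mean of at least 5 FPKM and 1 with no locus listed at 0; opposite loci numbered 6 at the mean of 5. With a 2-fold cutoff in place of 4-fold there were 556, 396, 234 and 285, and with a 4-fold cutoff for both cultivars 0 higher, 2 lower and 0 opposite. The share of the 65 higher in the embryo than in T1 became, at a pseudocount of 0.1, 73.4% for TNG67 and 53.1% for IR64 over the loci then counted; at 5 it was 96.0% for TNG67, where 30.8% of the lower loci were lower in the TNG67 embryo. Same-sign loci were 59.3% with no filter and 61.9% at the mean of 5. Named loci kept their direction under both pseudocounts and both scalings, and 7 of 48 values moved by over 1.5 times: at a pseudocount of 5 LOC_Os01g06630 (-1.44) in both cultivars, LOC_Os10g40520 (-2.19) and LOC_Os02g44310 (-1.64) in TNG67 and LOC_Os12g43440 (1.40) and LOC_Os05g28210 (-2.28) in IR64, at 0.1 LOC_Os02g44310 (-5.82), and after quantile normalization LOC_Os12g13870 (1.30). Depth is unknown, and 1 library per cultivar and stage limits all values.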
